A study of Mus musculus with 20 samples.

Results

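The genes described here are 35 genes of the blood vessel wall, measured in 20 RNA sequencing libraries of mouse BNST, short for the bed nucleus of the stria terminalis, a small forebrain structure between the amygdala and the hypothalamus. They were taken from a list of symbols, matched to Ensembl identifiers, and are 35 of the 19214 genes in the count tables. The list was chosen with earlier results of these data known. Its counts below, set beside shares over all genes, therefore describe the list and are no independent test of it. Of the 35, 28 are endothelial and 7 are mural, and the mural genes comprise 5 pericyte and 2 smooth muscle genes. The smooth muscle gene Tagln had too few counts for testing, so 34 of the 35 genes passed the filter on low counts.

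The 20 libraries fall into 4 groups of 5: susceptible males, susceptible females, male controls and female controls. All mice were kept free of specific pathogens, and the labels give the sex as the genotype, with no strain, age or transgene named. Susceptible mice belonged to a model of anxiety made by chronic restraint stress, in which animals are confined repeatedly, and controls are labelled only as such. How an animal was judged susceptible is not in the labels, and neither is whether each library of a group came from a separate animal, so the p-values speak only of how the libraries of a group vary, and that variation may be technical.

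Endothelial cells line every blood vessel, and in the brain the tight junctions between them form the blood-brain barrier. Pericytes sit on capillaries within the shared basement membrane, smooth muscle cells surround arterioles, and both are called mural cells. Endothelial cells sense blood flow, respond to vascular endothelial growth factor (VEGF) and angiopoietins, and release factors that act on clotting and vessel tone.

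Many endothelial promoters are known to carry binding sites of ETS factors, the family of the listed gene Erg, and RefSeq promoter windows on GRCm38.p6 were available for 20 of the 35 genes, 27 windows in all. Each window runs from 250 bases before to 50 bases after a transcription start. Windows of Adgrl4, Adgrf5, Eng and Robo4 are shown because these are the 4 receptor genes called between male and female controls below and each has a window with ETS cores, which stand in capitals (CCGGAA or AGGAAG, on either strand). They lie at chr3:151437632-151437931 for Adgrl4, chr17:43360181-43360480 for Adgrf5, chr2:32646345-32646644 for Eng and chr9:37401722-37402021 for Robo4, all on the plus strand.
Adgrl4: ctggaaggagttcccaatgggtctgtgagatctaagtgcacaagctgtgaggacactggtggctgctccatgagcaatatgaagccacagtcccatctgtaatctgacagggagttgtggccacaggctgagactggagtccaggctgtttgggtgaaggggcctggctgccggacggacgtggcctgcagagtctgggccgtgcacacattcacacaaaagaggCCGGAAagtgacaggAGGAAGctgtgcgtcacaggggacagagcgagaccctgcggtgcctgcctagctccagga
Adgrf5: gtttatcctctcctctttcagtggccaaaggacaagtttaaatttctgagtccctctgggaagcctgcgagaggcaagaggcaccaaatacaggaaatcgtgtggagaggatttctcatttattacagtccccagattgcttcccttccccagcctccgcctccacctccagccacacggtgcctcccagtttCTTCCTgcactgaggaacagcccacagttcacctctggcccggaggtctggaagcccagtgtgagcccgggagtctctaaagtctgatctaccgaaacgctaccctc
Eng: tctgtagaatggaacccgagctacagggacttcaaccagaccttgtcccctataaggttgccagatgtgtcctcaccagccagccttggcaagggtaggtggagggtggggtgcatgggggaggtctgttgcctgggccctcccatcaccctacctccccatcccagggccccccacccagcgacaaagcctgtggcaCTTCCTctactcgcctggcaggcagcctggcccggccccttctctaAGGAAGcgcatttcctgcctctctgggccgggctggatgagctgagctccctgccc
Robo4: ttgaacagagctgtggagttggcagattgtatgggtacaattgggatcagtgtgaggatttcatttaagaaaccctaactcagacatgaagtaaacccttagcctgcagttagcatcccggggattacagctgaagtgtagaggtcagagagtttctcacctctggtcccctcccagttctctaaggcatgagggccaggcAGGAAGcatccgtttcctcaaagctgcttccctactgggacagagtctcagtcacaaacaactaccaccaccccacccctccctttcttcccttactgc
The Adgrl4 window held both cores, the Eng window held AGGAAG once on each strand, and the Robo4 window and the Adgrf5 window shown held AGGAAG once. A second Adgrf5 window, at chr17:43389216-43389515, held neither core. Over the 27 windows, AGGAAG was present in 12 (44.4%), against 35.4% of the 32851 mouse promoter windows of the same length. CCGGAA was present in 3 windows, those of Adgrl4, Kdr and Ocln (11.1% against 14.9% of all windows). The KLF core CACCC was present in 70.4% of the windows (57.5% of all) and the SOX core ACAAT in 22.2% (31% of all). The windows were somewhat richer in G and C than the rest, with a median GC content of 58.3% against 52.7%.

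The listed vascular genes were a small part of each library, and other RNA of vascular cells is not in this share. The 35 genes together held between 0.04% and 0.085% of the counts, or 400 to 850 CPM (CPM is the gene's count scaled by library size, the usual unit of edgeR). Among the 35 genes, levels per kilobase of exon averaged over the 20 libraries were highest for Itm2a (23.3 CPM per kb), a membrane protein gene rich in brain endothelium, then Cldn5 (14.3), the main claudin of brain endothelium, and Rgs5 (14.2), a regulator of G protein signalling in pericytes. Ly6c1 (12.6) and Ly6a (12.3), surface markers of brain endothelium, came next and did not differ beyond their spread. The lowest level was that of Tagln (0.112 CPM per kb), a smooth muscle actin-binding protein. The variation between all 20 libraries was smallest for Egfl7 (coefficient of variation 16.4%) and Ramp2 (16.9%) among the 35 genes, and among the 34 tested genes it was largest for Vwf (46.2%) and Acta2 (43.0%), with a median of 27.7% over the tested genes. Pecam1, Cldn5 and Cdh5, which define endothelium, had at least 157, 218 and 103 counts in every library. Since the RNA came from whole tissue, fewer vascular cells and less vascular RNA per cell cannot be told apart.

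Total counts ranged from 14637636 to 17862840 per library. Gad1, which makes the transmitter GABA used by most BNST neurons, was at 457 to 893 CPM in every library. Ttr, a choroid plexus gene, was over 100 CPM in 7 libraries and Pmch, a gene of lateral hypothalamic neurons, over 1 CPM in 5. The 7 with Ttr were 2 female controls, 1 male control, 2 susceptible females and 2 susceptible males. The 5 with Pmch were 3 female controls, 0 male controls, 1 susceptible female and 1 susceptible male. All comparisons were also made without these libraries. Library 4 of the male controls had the lowest level of its group for 24 of the 34 tested vascular genes, library 1 of the susceptible females for 22. Library 5 of the susceptible females was the highest of its group for 25.

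Most vascular genes were higher in male controls than in female controls. Differences are given throughout as log2 fold changes with their SE. Of the 34 tested genes, 33 were higher in male controls, with a median log2 fold change of 0.55 against a median near 0 (-0.003) over all 14884 genes tested. The difference passed the threshold (edgeR, adjusted p under 0.05) for 9 of the 34 genes, all higher in males, while 76 of all genes tested passed it in either direction (0.511%). At an unadjusted p under 0.05, 20 vascular genes were higher in male controls (10.4% of all genes) and 0 lower (8.84% of all genes). For 9 genes every male control library lay above every female control library (2.32% of all genes): Pecam1, Esam, Podxl, Flt1, Robo4, Adgrl4, Adgrf5, Nos3 and Ly6c1. The 9 genes called, Adgrl4, Pecam1, Robo4, Podxl, Adgrf5, Klf2, Eng, Vwf and Ly6c1, lie on chromosomes 2, 3, 6, 8, 9, 11, 15 and 17. The summed level of the 35 genes averaged 730 ± 145 CPM in male controls and 480.0 ± 31.2 CPM in female controls (SD, n = 5 each). Library 4 of the male controls (499 CPM) lay inside the range of the female controls (439 to 513 CPM), and the other 4 male control libraries lay between 687 and 850 CPM. The number of vascular genes called rested on single libraries: it was 0 without library 1 or 3 of the female controls, 2 without their library 4 or without library 2 or 3 of the male controls, 3 without library 2 of the female controls, and 4 without library 5 of the male controls, library 3 or 4 of the susceptible females or library 3 or 4 of the susceptible males. It was 5 without library 1 of the susceptible males, 7 without library 2 of the susceptible females and 8 without library 2 of the susceptible males. The number rose to 13 without library 5 of the female controls and to 12 without library 4 of the male controls. Without library 1 of the male controls or of the susceptible females it was 11, and without library 5 of the susceptible males 10. By DESeq2 it was 15, and by limma voom with sample quality weights 19. With no filter on low counts it was 4, and with the 2 groups fitted alone 2. Without the 7 libraries with Ttr, which left 3 female and 4 male controls, it was 0. Without the 5 with Pmch, which left 2 female and 5 male controls, it was also 0. In each of these fits 32 to 34 genes stayed higher in males.

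Among the genes of junctions and surface glycoproteins, 7 of 8 were higher in male controls and 2 passed the test. Pecam1, an adhesion molecule at contacts between endothelial cells, had 25.5, 25.7, 25.5, 16.5 and 27.1 CPM in male controls, against 12.6, 14.3, 13.6, 11.4 and 13.7 CPM in female controls. Pecam1 rose by 0.87 ± 0.14 (adjusted p = 0.0109), and even the lowest male library lay above the highest female one. Podxl, a sialic-acid-rich glycoprotein of the luminal surface, had 41.5, 41.7, 45.3, 23.4 and 26.8 CPM in male controls, against 17.7, 20.2, 20.3, 20.1 and 21.5 CPM in female controls. Podxl also rose (0.84 ± 0.17, adjusted p = 0.0358), with 3 male libraries far above and 2 closer to the female range. Cdh5, the cadherin of endothelial adherens junctions, had 15.6, 17.7, 17.1, 9.63 and 15.3 CPM in male controls, against 6.74, 11.4, 9.55, 8.45 and 10.3 CPM in female controls. Its difference of 0.70 ± 0.18 did not pass (adjusted p = 0.0752), and library 4 of the males lay within the female range. Esam, another adhesion molecule of endothelial junctions, had 11.96, 16.3, 14.6, 13.4 and 16.5 CPM in male controls, against 10.7, 10.1, 8.35, 9.47 and 9.84 CPM in female controls. Esam missed the threshold narrowly although the groups did not overlap (0.59 ± 0.14, adjusted p = 0.056). Cldn5 had 23.9, 27.1, 26.1, 14.6 and 31.3 CPM in male controls, against 20.2, 23.7, 21.7, 20.02 and 20.4 CPM in female controls, a difference of 0.21 ± 0.15 (adjusted p = 0.429) in which male libraries lay on both sides of the female ones.

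The remaining junction genes differed by less than 2 standard errors between the controls. Emcn, an endothelial sialomucin, differed by 0.30 ± 0.17. Ocln, the tight junction protein occludin, differed by 0.18 ± 0.19, and Icam2, an adhesion molecule for leukocytes, by -0.00 ± 0.31. Icam2 was the single tested gene with a negative value, and at 1.36 ± 0.78 CPM in male controls and 1.36 ± 0.25 CPM in female controls (SD, n = 5 each) it was among the least counted of the 34.

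**Figure D1:**
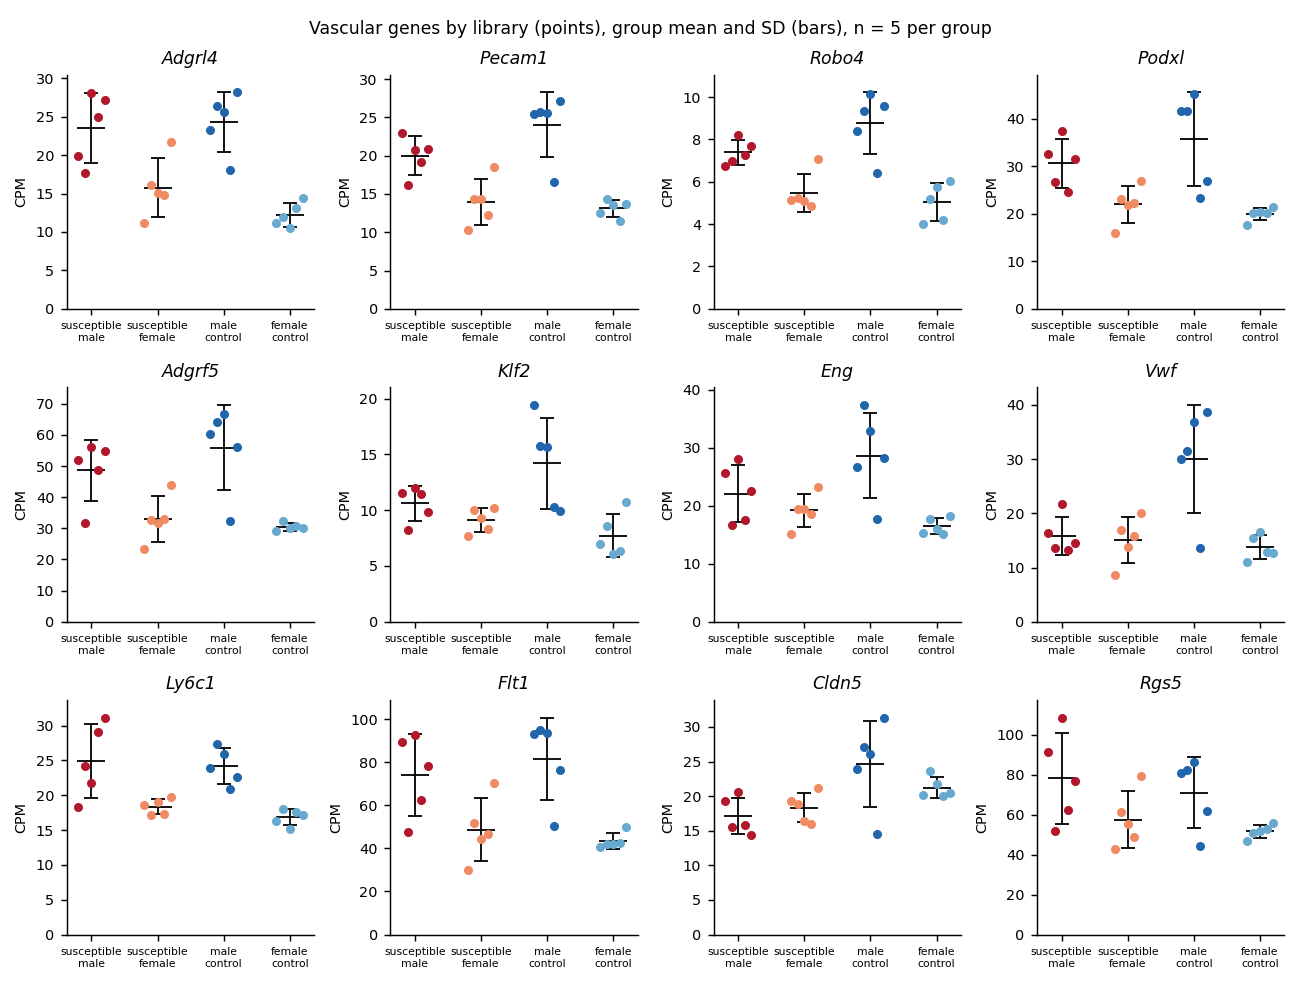
Level in CPM (y axis) of 12 vascular genes in each library (points) for the 4 groups (x axis), with bars for the group mean and SD, n = 5. The panels are the 9 genes called between controls, then Flt1, Cldn5 and Rgs5; library 4 of the male controls is the lowest of its group in 11 of these 12 panels.

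All 9 receptor genes were higher in male controls, and 4 passed the test. Adgrl4, an adhesion G protein-coupled receptor of endothelium, had 23.3, 26.3, 25.6, 18.01 and 28.2 CPM in male controls, against 11.2, 11.98, 10.5, 13.1 and 14.5 CPM in female controls. This was a rise of 0.99 ± 0.16 (adjusted p = 0.0109) with no overlap, and its promoter window is the one above that holds both ETS cores. Adgrf5, a related receptor, had 60.2, 64.2, 66.7, 32.5 and 56.1 CPM in male controls, against 29.01, 32.4, 30.2, 30.6 and 30.02 CPM in female controls. Adgrf5 rose by 0.88 ± 0.18 (adjusted p = 0.0429), and library 4 of the males lay only just above the highest female library. Robo4, an endothelial guidance receptor that stabilises vessels, had 8.42, 9.35, 10.1, 6.42 and 9.597 CPM in male controls, against 4.02, 5.19, 5.77, 4.19 and 6.03 CPM in female controls. It rose by 0.80 ± 0.15 (adjusted p = 0.024). Eng, a co-receptor for transforming growth factor beta (TGF-beta) and bone morphogenetic proteins (BMP), had 26.7, 37.4, 32.9, 17.8 and 28.2 CPM in male controls, against 15.3, 17.6, 16.04, 15.1 and 18.3 CPM in female controls. Eng rose by 0.80 ± 0.17 (adjusted p = 0.0459), and of the male libraries only library 4 lay inside the female range.

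The VEGF and angiopoietin receptors were higher in male controls without passing the test. Flt1, a VEGF receptor that also traps the ligand, had 93.1, 94.97, 93.5, 50.4 and 76.3 CPM in male controls, against 40.6, 42.2, 42.03, 42.5 and 49.8 CPM in female controls. Its difference was 0.91 ± 0.21 (adjusted p = 0.0584), although the groups did not overlap. Kdr, the main signalling receptor for VEGF, differed by 0.59 ± 0.29 (adjusted p = 0.266), with 16.7 ± 5.46 CPM in male controls and 11.1 ± 2.18 CPM in female controls (SD, n = 5 each). Tek, the angiopoietin receptor, had 13.97, 19.4, 17.9, 9.12 and 10.4 CPM in male controls, against 8.44, 9.57, 8.69, 8.64 and 8.18 CPM in female controls. Its difference was 0.70 ± 0.23 (adjusted p = 0.134). Tie1, an orphan partner of Tek, had 12.6, 16.02, 18.1, 8.89 and 9.35 CPM in male controls, against 8.56, 9.796, 7.82, 7.37 and 8.18 CPM in female controls. Tie1 differed by 0.64 ± 0.17 (adjusted p = 0.0853), and 2 of its male libraries lay within the female range. Ptprb, the phosphatase that restrains Tek, had 66.7, 68.8, 63.7, 32.5 and 34.7 CPM in male controls, against 27.7, 34.2, 31.6, 29.9 and 34.4 CPM in female controls. Ptprb differed by 0.75 ± 0.25 (adjusted p = 0.145), with 3 male libraries high, library 4 inside the female range and library 5 just above it.

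The 4 transcription factor genes were all higher in male controls, and 1 passed. Klf2, a factor induced by laminar blood flow, had 19.5, 15.7, 15.7, 10.3 and 9.91 CPM in male controls, against 6.97, 8.59, 6.03, 6.35 and 10.7 CPM in female controls. Klf2 rose by 0.88 ± 0.19 (adjusted p = 0.0459), with libraries 4 and 5 of the males below the highest female library. Erg, an ETS factor that maintains endothelial identity, had 4.94, 6.92, 5.24, 2.52 and 4.799 CPM in male controls, against 2.38, 2.88, 2.92, 3.24 and 3.26 CPM in female controls. Erg differed by 0.73 ± 0.23 (adjusted p = 0.132). Sox17 and Sox18, related factors of arterial and vascular development, differed by less: Sox17 by 0.26 ± 0.18 and Sox18 by 0.28 ± 0.29.

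Among the secreted factors and the enzyme, 3 of 3 were higher in male controls and 1 passed. Vwf, which endothelial cells store and release for platelet adhesion, had 29.9, 31.4, 36.9, 13.5 and 38.7 CPM in male controls, against 11.1, 15.4, 16.6, 12.9 and 12.6 CPM in female controls. Vwf rose by 1.13 ± 0.24 (adjusted p = 0.0459), the largest fold change of the 34 genes in this comparison, with 4 male libraries well above the females and library 4 inside the female range. Nos3, the endothelial nitric oxide synthase, had 9.09, 12.6, 11.8, 8.89 and 11.3 CPM in male controls, against 7.25, 7.26, 7.89, 6.74 and 8.796 CPM in female controls. Nos3 differed by 0.50 ± 0.13 (adjusted p = 0.0752). Egfl7, a matrix-bound factor secreted by endothelium, had 13.3, 18.5, 17.1, 11.5 and 16.5 CPM in male controls, against 12.7, 13.5, 12.7, 12.96 and 15.1 CPM in female controls. Egfl7 differed by only 0.20 ± 0.13 (adjusted p = 0.411), and the groups overlapped. An antisense transcript shares 25.2% of the exon bases of Nos3 in GENCODE M21, and the strand setting of the counts is not given in the sources used here.

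The other 4 surface genes were also higher in male controls, and 1 passed. Ly6c1 had 23.9, 27.3, 25.99, 20.9 and 22.7 CPM in male controls, against 16.3, 18.04, 15.1, 17.5 and 17.2 CPM in female controls. It rose by 0.52 ± 0.12 (adjusted p = 0.0474), with no overlap. Ly6a had 15.8, 17.1, 15.6, 21.6 and 14.4 CPM in male controls, against 10.8, 14.7, 11.7, 11.8 and 12.3 CPM in female controls. Ly6a differed by 0.46 ± 0.17 (adjusted p = 0.171), and here library 4 was the highest of the males, unlike for most of the 34 genes. Ly6c1 and Ly6a belong to 1 family of similar genes, so reads may have been shared between family members. Itm2a differed by 0.08 ± 0.19. Ramp2, a partner of the adrenomedullin receptor, had 7.01, 8.68, 8.66, 7.23 and 6.42 CPM in male controls, against 6.35, 7.66, 5.702, 6.04 and 8.49 CPM in female controls. Ramp2 differed by 0.15 ± 0.14 with wide overlap, and it shares 33.4% of its exon bases with its neighbour Vps25.

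All 6 tested mural genes were higher in male controls too, and 0 passed. Rgs5 had 80.9, 82.3, 86.3, 44.1 and 61.8 CPM in male controls, against 46.97, 50.9, 51.9, 52.7 and 55.8 CPM in female controls. Its difference was 0.46 ± 0.20 (adjusted p = 0.23), and library 4 of the males was below all female controls. Pdgfrb, the receptor through which endothelium recruits pericytes, had 29.3, 37.6, 35.8, 18.9 and 38.9 CPM in male controls, against 26.6, 26.7, 27.6, 23.3 and 29.1 CPM in female controls. Pdgfrb differed by 0.27 ± 0.16 (adjusted p = 0.349), with 4 male libraries above and 1 below the female range. Kcnj8 and Abcc9 encode the pore and the regulatory subunit of a potassium channel of pericytes, and differed by 0.23 ± 0.17 and 0.23 ± 0.16. Higd1b, a mitochondrial protein gene marking brain pericytes, differed by 0.17 ± 0.25. Acta2, smooth muscle actin, had 5.12, 8.56, 11.6, 7.86 and 7.23 CPM in male controls, against 2.15, 7.38, 4.11, 3.43 and 2.95 CPM in female controls. Acta2 had the largest mural difference (1.01 ± 0.27, adjusted p = 0.0867), with library 2 of the females inside the male range. The median over the 6 tested mural genes was 0.25, and over the 28 endothelial genes 0.61. Tagln was counted 71 times in all, with 5, 5, 3, 6 and 4 counts in male controls and 2, 2, 3, 9 and 6 in female controls, and an antisense gene shares 62.4% of its exon bases.

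**Figure D2:**
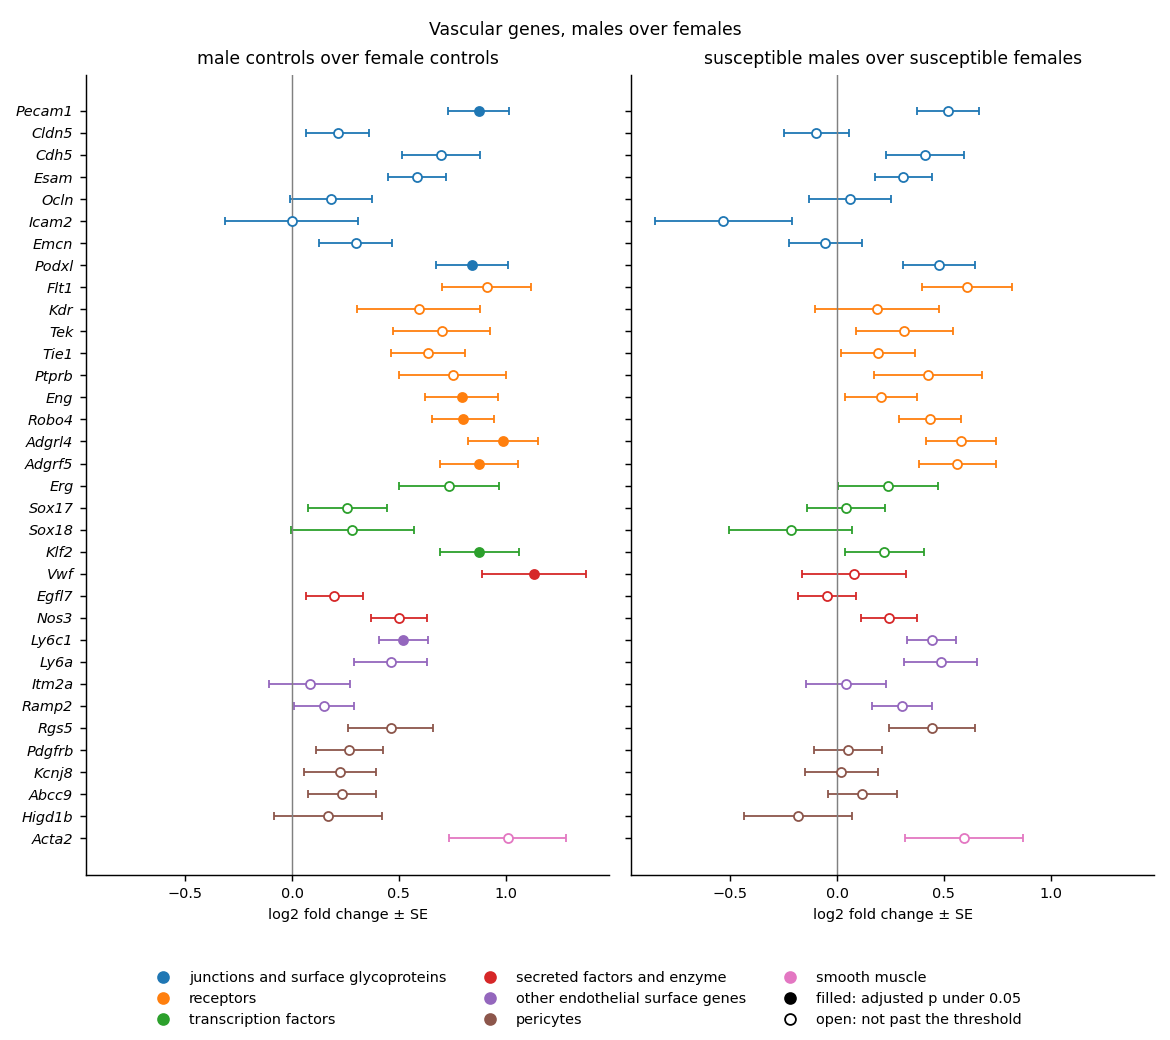
Log2 fold change with SE (x axis) of each of the 34 tested vascular genes (y axis, coloured by role), males over females, in controls on the left and in susceptible mice on the right. Filled points passed an adjusted p of 0.05: 9 in the control panel and 0 in the susceptible panel.

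Markers of other cell types also differed between the controls. All 10 oligodendrocyte markers were lower in male controls (median -0.62), 9 of them at an unadjusted p under 0.05 (8.84% of all genes were lower). Ermn, a myelin sheath protein gene, passed the test (-0.83 ± 0.18, adjusted p = 0.0464). The summed level of the 10 markers was 3787 to 7068 CPM in male controls and 6103 to 10376 CPM in female controls. Of 10 astrocyte markers, 9 were lower in male controls (median -0.21), 4 at an unadjusted p under 0.05 (8.84% of all genes were lower), and 0 passed. Their sums were 4392 to 5611 CPM in male controls and 4553 to 5522 CPM in female controls. Of 10 neuron markers, 6 were higher and 4 lower (median 0.06). At an unadjusted p under 0.05, 2 of them were higher (10.4% of all genes) and 3 lower, and 0 passed. Of 9 choroid plexus markers, 8 were lower (median -1.02), with sums of 209 to 2932 CPM in male controls and 236 to 3673 CPM in female controls. Of 18 meningeal and fibroblast markers, 11 were higher (median 0.03), with sums of 322 to 581 CPM in male controls and 200 to 507 CPM in female controls. Fn1, fibronectin, which fibroblasts and endothelium both make, passed the test among them (1.11 ± 0.21, adjusted p = 0.0288). The 5 red cell markers summed to 1.25 to 130 CPM in male controls and 43.0 to 116 CPM in female controls, and library 5 of the male controls, with the 1.25 CPM, had a vascular sum of 687 CPM. None of these markers was at 0 in all libraries of a group, and the part of these cell types in the vascular difference was not tested.

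In susceptible mice the difference between the sexes had the same direction for most vascular genes, with a smaller median. Of the 34 genes, 28 were higher in susceptible males than in susceptible females, with a median log2 fold change of 0.23 against -0.02 over all genes. None of the 34 passed the test, while 7 of all genes did (0.047%). At an unadjusted p under 0.05, 13 vascular genes were higher in males (3.26% of all genes) and 0 lower (3.02% of all genes). The groups did not overlap for 1 gene, Icam2, which was lower in every susceptible male library (0.396% of all genes). Summed levels averaged 639 ± 98.6 CPM in susceptible males and 509 ± 85.9 CPM in susceptible females (SD, n = 5 each), and the groups overlapped. These libraries are not those of the control comparison, and 28 genes were higher in males in both (24.7% of all genes), of which 12 had an unadjusted p under 0.05 in both (0.813% of all genes). The 13 became 8 without library 1 of the susceptible females or library 3 of the susceptible males, 7 without the 5 Pmch libraries and 5 without the 7 Ttr libraries. For these fits the share over all genes is not given, and the 3.26% belongs to the main fit.

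Among the adhesion and junction genes Pecam1 had the smallest p. It had 23.02, 16.1, 20.8, 19.2 and 20.9 CPM in susceptible males, against 10.4, 14.4, 14.4, 12.3 and 18.5 CPM in susceptible females. The difference was 0.52 ± 0.14 (unadjusted p = 0.00191, adjusted p = 0.69), with library 5 of the females inside the male range. Podxl had 32.5, 26.7, 37.5, 24.6 and 31.6 CPM in susceptible males, against 16.03, 23.1, 21.8, 22.3 and 26.8 CPM in susceptible females, a difference of 0.48 ± 0.17 (unadjusted p = 0.0105). Cdh5 had 13.9, 9.81, 16.1, 12.2 and 10.9 CPM in susceptible males, against 6.795, 9.39, 9.92, 8.96 and 12.3 CPM in susceptible females, a difference of 0.41 ± 0.18 (unadjusted p = 0.0358). Podxl overlapped between the sexes in 1 female library and Cdh5 in 2. Esam had 11.3, 14.1, 14.2, 11.98 and 16.9 CPM in susceptible males, against 8.11, 11.002, 13.3, 10.1 and 12.8 CPM in susceptible females, a difference of 0.31 ± 0.13 (unadjusted p = 0.0327). Cldn5 had 19.2, 15.6, 20.5, 15.9 and 14.4 CPM in susceptible males, against 19.3, 18.9, 16.4, 15.97 and 21.1 CPM in susceptible females, and differed by -0.10 ± 0.15. Cldn5 thus had the lower mean in susceptible males, within its spread. Ocln differed by 0.06 ± 0.19, Emcn by -0.06 ± 0.17 and Icam2 by -0.53 ± 0.32 (unadjusted p = 0.111). Icam2 was low throughout, at 1.17 ± 0.329 CPM in susceptible males and 1.704 ± 0.207 CPM in susceptible females (SD, n = 5 each).

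The 9 receptor genes were all higher in susceptible males, 4 of them at an unadjusted p under 0.05. Adgrl4 had 19.9, 17.7, 28.1, 24.9 and 27.1 CPM in susceptible males, against 11.1, 16.1, 15.03, 14.9 and 21.7 CPM in susceptible females, a difference of 0.58 ± 0.16 (unadjusted p = 0.00189). Adgrf5 had 51.8, 31.7, 56.05, 48.8 and 54.8 CPM in susceptible males, against 23.2, 32.8, 31.8, 32.9 and 43.8 CPM in susceptible females, a difference of 0.56 ± 0.18 (unadjusted p = 0.0058). Flt1 had 89.5, 47.4, 92.6, 62.4 and 78.1 CPM in susceptible males, against 30.02, 51.7, 44.4, 46.5 and 70.5 CPM in susceptible females, a difference of 0.61 ± 0.21 (unadjusted p = 0.00938). All 3 overlapped, with library 2 of the males low and library 5 of the females high. Robo4 had 6.75, 6.98, 8.21, 7.29 and 7.703 CPM in susceptible males, against 5.15, 5.22, 5.11, 4.84 and 7.06 CPM in susceptible females, a difference of 0.43 ± 0.15 (unadjusted p = 0.00771). Eng had 25.7, 16.7, 27.99, 17.5 and 22.6 CPM in susceptible males, against 15.2, 19.4, 19.4, 18.6 and 23.3 CPM in susceptible females, and differed by 0.20 ± 0.17. Eng, called between the controls, overlapped widely here. Tek had 16.7, 7.37, 16.9, 10.1 and 8.82 CPM in susceptible males, against 7.39, 10.4, 9.5001, 10.9 and 10.02 CPM in susceptible females, and differed by 0.32 ± 0.23. Tie1 had 11.9, 10.1, 12.4, 9.69 and 9.09 CPM in susceptible males, against 7.32, 9.199, 10.1, 8.96 and 11.03 CPM in susceptible females, and differed by 0.19 ± 0.17. Tek was high in libraries 1 and 3 of the males and close to the females in the others. Ptprb had 55.03, 28.4, 60.5, 36.4 and 41.5 CPM in susceptible males, against 18.6, 35.4, 32.2, 31.3 and 47.9 CPM in susceptible females, and differed by 0.42 ± 0.25. Kdr differed by 0.19 ± 0.29, with 11.2 ± 4.43 CPM in susceptible males and 9.84 ± 2.69 CPM in susceptible females (SD, n = 5 each).

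None of the transcription factors and secreted factors reached an unadjusted p of 0.05 between susceptible males and females. Klf2 had 11.5, 8.23, 12.01, 11.4 and 9.81 CPM in susceptible males, against 7.72, 10.01, 9.32, 8.29 and 10.2 CPM in susceptible females, and differed by 0.22 ± 0.19. Erg had 4.66, 3.23, 4.93, 4.08 and 4.81 CPM in susceptible males, against 1.98, 3.67, 3.73, 4.12 and 4.901 CPM in susceptible females, and differed by 0.24 ± 0.23. Sox17 differed by 0.04 ± 0.18 and Sox18 by -0.22 ± 0.29. All 4 factors overlapped between the sexes. Vwf had 16.3, 13.6, 21.8, 13.2 and 14.5 CPM in susceptible males, against 8.64, 16.9, 13.8, 15.9 and 20.04 CPM in susceptible females, and differed by 0.08 ± 0.24. Egfl7 had 10.9, 14.8, 11.6, 11.9 and 12.9 CPM in susceptible males, against 11.7, 9.696, 13.4, 13.6 and 15.7 CPM in susceptible females, and differed by -0.05 ± 0.13. Vwf, with the largest difference between the controls, averaged 15.9 ± 3.53 CPM in susceptible males and 15.04 ± 4.23 CPM in susceptible females (SD, n = 5 each). Nos3 had 8.78, 9.48, 7.898, 8.46 and 10.1 CPM in susceptible males, against 5.61, 7.77, 7.696, 7.401 and 9.297 CPM in susceptible females, and differed by 0.24 ± 0.13.

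Of the other endothelial surface genes, 3 of 4 had an unadjusted p under 0.05. Ly6c1 had 18.3, 24.2, 21.8, 29.1 and 31.1 CPM in susceptible males, against 18.6, 17.2, 19.1, 17.3 and 19.7 CPM in susceptible females, a difference of 0.44 ± 0.12 (unadjusted p = 0.00106). Ly6a had 11.3, 15.8, 14.2, 23.9 and 22.98 CPM in susceptible males, against 11.3, 13.9, 11.4, 11.9 and 14.6 CPM in susceptible females, a difference of 0.48 ± 0.17 (unadjusted p = 0.0105). For both, libraries 4 and 5 of the males were the highest, and library 1 lay within or below the female range. Ramp2 had 8.03, 9.48, 9.92, 6.98 and 9.61 CPM in susceptible males, against 6.47, 8.702, 6.31, 7.62 and 6.56 CPM in susceptible females, a difference of 0.30 ± 0.14 (unadjusted p = 0.0425). Itm2a differed by 0.04 ± 0.19. Of the mural genes, Rgs5 had 91.3, 51.8, 109, 62.2 and 77.03 CPM in susceptible males, against 42.8, 61.6, 55.2, 48.7 and 79.5 CPM in susceptible females, a difference of 0.44 ± 0.20 (unadjusted p = 0.0406). Acta2 had 6.08, 6.98, 7.52, 4.08 and 5.201 CPM in susceptible males, against 3.83, 3.54, 3.13, 5.29 and 3.96 CPM in susceptible females, a difference of 0.59 ± 0.28 (unadjusted p = 0.0443). Both mural genes overlapped between the sexes in at least 1 library. Pdgfrb had 24.6, 20.3, 27.5, 19.8 and 20.2 CPM in susceptible males, against 18.9, 25.4, 20.1, 18.2 and 25.9 CPM in susceptible females, and differed by 0.05 ± 0.16. Kcnj8 differed by 0.02 ± 0.17, Abcc9 by 0.12 ± 0.16 and Higd1b by -0.18 ± 0.25. Tagln had 3, 2, 2, 0 and 2 counts in susceptible males and 1, 4, 3, 4 and 5 in susceptible females.

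Markers of other cell types were compared between susceptible males and females too, and none passed the test. Of 10 oligodendrocyte markers, 6 were higher in susceptible males (median 0.02), with sums of 6033 to 7865 CPM in susceptible males and 6077 to 8040 CPM in susceptible females. Of 18 meningeal and fibroblast markers, 15 were lower in susceptible males (median -0.23), with sums of 284 to 364 CPM in susceptible males and 255 to 435 CPM in susceptible females. Of 9 choroid plexus markers, 7 were lower (median -0.60), with sums of 262 to 2773 CPM in susceptible males and 275 to 3617 CPM in susceptible females. Of 10 astrocyte markers, 7 were lower (median -0.12), with sums of 4416 to 4779 CPM in susceptible males and 3917 to 6052 CPM in susceptible females. Of 14 microglia and macrophage markers 9 were lower (median -0.01), of 5 red cell markers 3 were higher (median 0.06), and of 10 neuron markers 5 were higher (median -0.04). Their part in the vascular values was not tested.

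In males, 30 of the 34 vascular genes were lower with stress, and none passed the test. The median over the 34 genes, susceptible males over male controls, was -0.22, against -0.01 over all genes. No gene of the 14884 passed the adjusted threshold by edgeR (0%), the smallest adjusted p being 0.405, and 1439 had an unadjusted p under 0.05. DESeq2 called 24 genes and 0 vascular ones, and limma voom with sample quality weights called 671 genes, among them Cldn5, Vwf, Egfl7, Nos3 and Pdgfrb. After a correction for GC content and exon length, voom called 0 genes, although 33 of the 34 vascular genes were then lower, with a median of -0.26 against -0.29 in voom without the correction. At an unadjusted p under 0.05, 6 vascular genes were lower in susceptible males (5.03% of all genes) and 0 higher (4.64% of all genes). The male controls entering here are those of the comparison with female controls, so the values of the comparisons are not independent. The 6 became 14 without library 4 of the male controls, 14 by voom and 16 by voom after the correction for GC content and length. They became 3 without their library 2 or 3, 3 without the 5 Pmch libraries, 1 without the 7 Ttr libraries, and 3 in edgeR after the same correction. Shares over all genes are not given for these alternative fits, and the 5.03% belongs to the main fit alone.

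Vwf had 16.3, 13.6, 21.8, 13.2 and 14.5 CPM in susceptible males, against 29.9, 31.4, 36.9, 13.5 and 38.7 CPM in male controls. The difference was -0.92 ± 0.24 (unadjusted p = 0.00114, adjusted p = 0.405), and library 4 of the controls alone lay among the susceptible libraries. Cldn5 had 19.2, 15.6, 20.5, 15.9 and 14.4 CPM in susceptible males, against 23.9, 27.1, 26.1, 14.6 and 31.3 CPM in male controls, a difference of -0.52 ± 0.15 (unadjusted p = 0.00246). Pdgfrb had 24.6, 20.3, 27.5, 19.8 and 20.2 CPM in susceptible males, against 29.3, 37.6, 35.8, 18.9 and 38.9 CPM in male controls, a difference of -0.51 ± 0.16 (unadjusted p = 0.00431). In each of these 3 genes library 4 of the controls was low and the other 4 controls lay above every susceptible library. Klf2 had 11.5, 8.23, 12.01, 11.4 and 9.81 CPM in susceptible males, against 19.5, 15.7, 15.7, 10.3 and 9.91 CPM in male controls, a difference of -0.42 ± 0.18 (unadjusted p = 0.0334). Eng differed by -0.37 ± 0.17 (unadjusted p = 0.0404), with 22.1 ± 4.95 CPM in susceptible males and 28.6 ± 7.36 CPM in male controls (SD, n = 5 each). Egfl7 differed by -0.31 ± 0.13 (unadjusted p = 0.0313), with 12.4 ± 1.53 CPM in susceptible males and 15.4 ± 2.89 CPM in male controls (SD, n = 5 each). For Klf2, Eng and Egfl7, 2 control libraries lay within the susceptible range.

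The other members had an unadjusted p of 0.05 or more in males. By role, 8 of 8 junction genes, 9 of 9 receptors, 4 of 4 transcription factors and 3 of 3 secreted factors and enzyme were lower, but 3 of the 4 other surface genes were higher. Among the VEGF and angiopoietin receptors Kdr had the largest difference (-0.58 ± 0.29), then Tie1 (-0.29 ± 0.17), Ptprb (-0.26 ± 0.25), Tek (-0.24 ± 0.22) and Flt1 (-0.14 ± 0.21). Robo4 (-0.25 ± 0.14), Adgrf5 (-0.20 ± 0.18) and Adgrl4 (-0.04 ± 0.16) differed by less than 2 standard errors. Pecam1 (-0.27 ± 0.14), Cdh5 (-0.26 ± 0.18), Podxl (-0.23 ± 0.17), Icam2 (-0.21 ± 0.32) and Esam (-0.09 ± 0.13) were likewise lower, and Emcn (-0.02 ± 0.17) and Ocln (-0.00 ± 0.19) were near 0. Nos3 differed by -0.27 ± 0.13, Sox18 by -0.20 ± 0.29, Erg by -0.17 ± 0.23 and Sox17 by -0.01 ± 0.18. The surface genes Ly6c1 (0.04 ± 0.11), Ly6a (0.06 ± 0.17), Ramp2 (0.21 ± 0.14) and Itm2a (-0.02 ± 0.19) stood nearer to 0 or above it. Of the 6 tested mural genes 5 were lower, among them Pdgfrb, given above. Rgs5 was the single higher one (0.14 ± 0.20), while Kcnj8 differed by -0.26 ± 0.17, Abcc9 by -0.05 ± 0.16, Higd1b by -0.05 ± 0.25 and Acta2 by -0.43 ± 0.27.

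**Figure D3:**
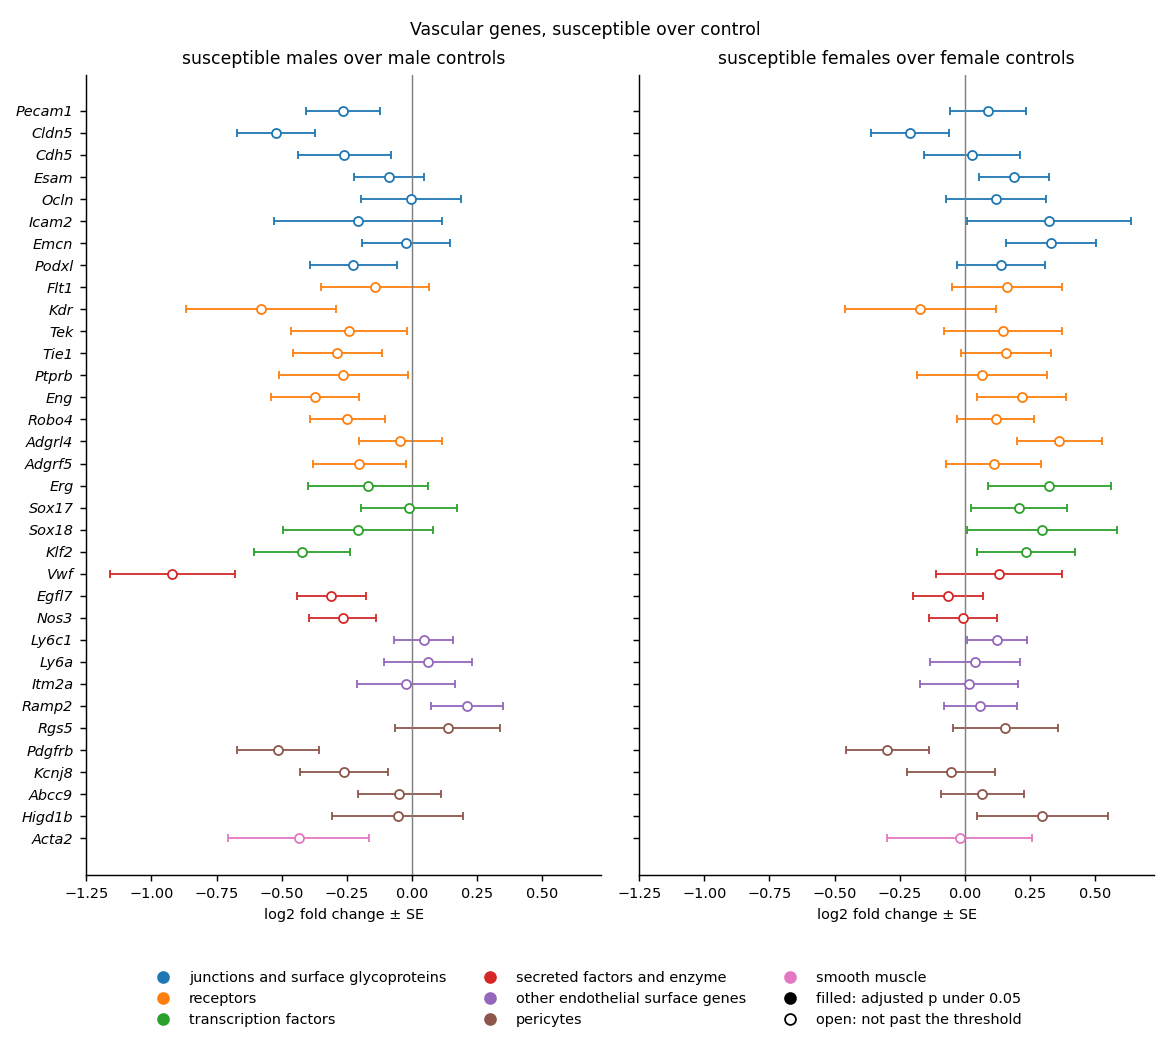
Log2 fold change with SE (x axis) of each of the 34 tested vascular genes (y axis, coloured by role), susceptible over control, in males on the left and in females on the right. All points are open since none passed an adjusted p of 0.05; 30 genes lie below 0 in males and 27 above 0 in females.

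In females, 27 of the 34 vascular genes were higher with stress, by little, and none passed the test. The median over the 34 genes, susceptible females over female controls, was 0.12 against 0.01 over all genes. No gene of the 14884 passed by edgeR (0%), 871 had an unadjusted p under 0.05, and DESeq2 and voom also called 0 genes. Of the vascular genes 1, Adgrl4, was higher at an unadjusted p under 0.05 (3.12% of all genes were), and 0 were lower (2.73% of all genes). Adgrl4 had 11.1, 16.1, 15.03, 14.9 and 21.7 CPM in susceptible females, against 11.2, 11.98, 10.5, 13.1 and 14.5 CPM in female controls, a difference of 0.36 ± 0.16 (unadjusted p = 0.0389, adjusted p = 0.774) with overlap. The next differences were those of Emcn (0.33 ± 0.17), Erg (0.33 ± 0.24), Icam2 (0.32 ± 0.32), Pdgfrb (-0.30 ± 0.16), Higd1b (0.30 ± 0.25), Sox18 (0.29 ± 0.29) and Klf2 (0.23 ± 0.19), each within 2 standard errors of 0. Among these Pdgfrb was lower, as were Cldn5 (-0.21 ± 0.15) and Kdr (-0.17 ± 0.29). Pdgfrb had 18.9, 25.4, 20.1, 18.2 and 25.9 CPM in susceptible females, against 26.6, 26.7, 27.6, 23.3 and 29.1 CPM in female controls. Vwf differed by 0.13 ± 0.24 and Pecam1 by 0.09 ± 0.14. Without library 5 of the susceptible females, the highest of its group for most members, the median was 0.01 and 20 genes were higher, while without their library 1 the median was 0.21.

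Averaged over the sexes, no gene passed the test by edgeR (0%, 1147 genes at an unadjusted p under 0.05), and DESeq2 called 29 genes, none of them vascular. Of the 34 genes, 15 were higher and 19 lower in susceptible mice. Pdgfrb (-0.41 ± 0.11, unadjusted p = 0.00185), Cldn5 (-0.37 ± 0.11, unadjusted p = 0.00258) and Vwf (-0.40 ± 0.17, unadjusted p = 0.0322) were lower at an unadjusted p under 0.05 (3.49% of all genes were lower), and 0 were higher (4.22% of all genes). The 3 became 5 without library 4 of the male controls and 0 without the 7 Ttr libraries, where 21 vascular genes were higher and 13 lower. Both counts stand without a share over all genes, since the 3.49% is that of the main fit. In the same comparison 17 of 18 meningeal and fibroblast markers were lower (median -0.37, 7 at an unadjusted p under 0.05), and so were all 10 basement membrane genes (median -0.20, 4 at an unadjusted p under 0.05). None of these passed, and their part in the vascular values was not tested.

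The difference of the stress contrasts, female minus male, was tested directly. It was positive for 32 of the 34 genes and for 7796 of all 14884 genes, with a median of 0.32 against 0.01 over all genes. No gene passed by edgeR (0%, smallest adjusted p 0.587, 1230 genes at an unadjusted p under 0.05) or by DESeq2 or voom. At an unadjusted p under 0.05, 3 vascular genes had a more positive value in females (4.64% of all genes): Vwf (1.05 ± 0.34, unadjusted p = 0.00617), Klf2 (0.66 ± 0.26, unadjusted p = 0.0218) and Eng (0.59 ± 0.24, unadjusted p = 0.024). The 3 became 11 without library 4 of the male controls, 8 without library 1 of the susceptible females and 6 by voom. These counts stand without a share over all genes, since the 4.64% is that of the main fit. The same 4 group means give the difference between the sexes. The value thus also says that the male over female log2 fold change was lower after stress than in controls for 32 genes. After stress it was below 0 for 6 of the 34 genes. In signs, 23 genes were lower with stress in males and higher in females, a count given without its share over all genes. Ly6a (-0.02 ± 0.24) and Ramp2 (-0.15 ± 0.20) were the 2 negative values.

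**Figure D4:**
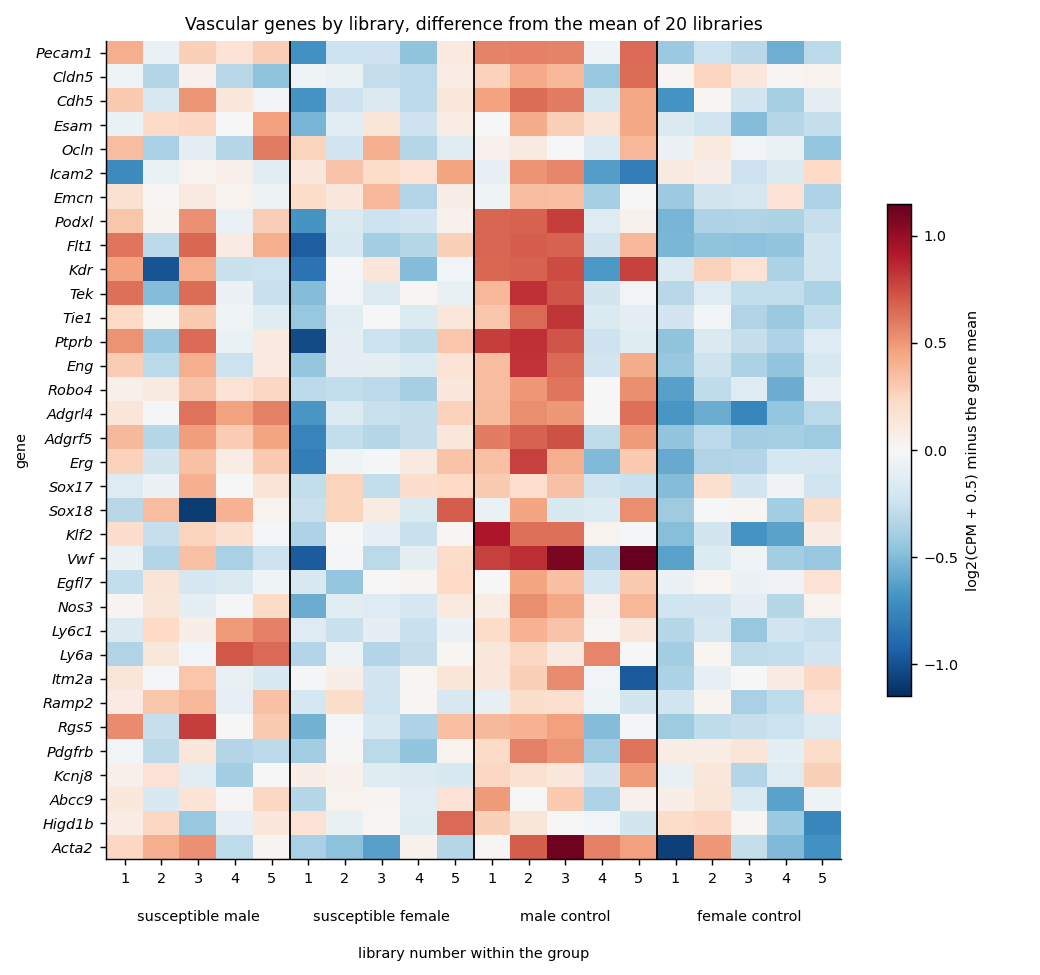
Each row is 1 of the 34 tested vascular genes and each column 1 library, grouped as susceptible male, susceptible female, male control and female control; colour gives log2(CPM + 0.5) minus the gene's mean over the 20 libraries. Libraries 1 to 3 of the male controls are high and library 4 low over most rows, and library 1 of the susceptible females is low over most endothelial rows.

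Within groups, vascular genes varied together in part. After the mean of each group was removed, correlations were computed over 20 libraries for 16 pairs chosen by role, with permutation tests and Benjamini-Hochberg adjustment over the 16. The permutations moved values freely between groups, although groups differed in spread (SD of Pecam1 4.27 CPM in male controls, 1.13 CPM in female controls). Permutation p-values are therefore approximate and may be too small. Pecam1 and Cdh5, both of endothelial contacts, had Pearson r = 0.85 and Spearman rho = 0.81 (permutation p = 1e-05 for r, the smallest the 100000 resamples can give, and 2e-05 for rho; adjusted 8e-05 and 0.00032). Without the 2 libraries farthest from the median of Pecam1, r was 0.72. Tek and Tie1 had r = 0.80 and rho = 0.81 (permutation p = 1e-05, again the smallest possible, and 5e-05; adjusted 8e-05 and 0.0004; r = 0.86 without 2 libraries). These pairs of receptors and junction genes were the most alike of the 16. Flt1 and Kdr had r = 0.80 (permutation p = 7e-05, adjusted 0.000373; r = 0.66 without 2 libraries), but their rho of 0.52 did not pass (permutation p = 0.0198, adjusted 0.0527). Cldn5 and Vwf had r = 0.77 and rho = 0.71 (permutation p = 0.00015 and 0.00063, adjusted 0.00048 and 0.00336; r = 0.51 without 2 libraries). Rgs5 and Pdgfrb had r = 0.75 and rho = 0.68 (permutation p = 0.00014 and 0.00131, adjusted 0.00048 and 0.00524; r = 0.66 without 2 libraries). Cldn5 and Rgs5, the only pair of an endothelial and a pericyte gene among the 16, had r = 0.63 and rho = 0.60 (permutation p = 0.00292 and 0.00673, adjusted 0.00779 and 0.0215). Without 2 libraries its r was 0.64, and other pairs across these cell types were not tested.

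The other 10 pairs did not pass. Rgs5 and Higd1b, both pericyte markers, had r = -0.005 and rho = -0.0075 (permutation p = 0.984 and 0.978), and Sox17 and Sox18 r = -0.12 and rho = -0.07 (permutation p = 0.608 and 0.757). Acta2 and Tagln, both of smooth muscle, had r = -0.06 and rho = -0.06 (permutation p = 0.796 and 0.789), with Tagln near the limit of counting. Acta2 and Rgs5 had r = 0.11 and rho = 0.16 (permutation p = 0.642 and 0.508). The channel subunits Kcnj8 and Abcc9 had r = 0.26 and rho = 0.19 (permutation p = 0.276 and 0.427). Cldn5 and Ocln had r = 0.23 and rho = 0.22 (permutation p = 0.343 and 0.34), and Klf2 and Nos3 r = 0.22 and rho = 0.21 (permutation p = 0.345 and 0.369). With the fibroblast collagen gene Col1a2, Acta2 had r = 0.44 and rho = 0.29 (permutation p = 0.0547 and 0.209, adjusted 0.125 and 0.479). Vwf had r = -0.07 and rho = -0.05 (permutation p = 0.765 and 0.852) and Cldn5 r = -0.19 and rho = -0.25 (permutation p = 0.424 and 0.293) with Col1a2.

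**Figure D5:**
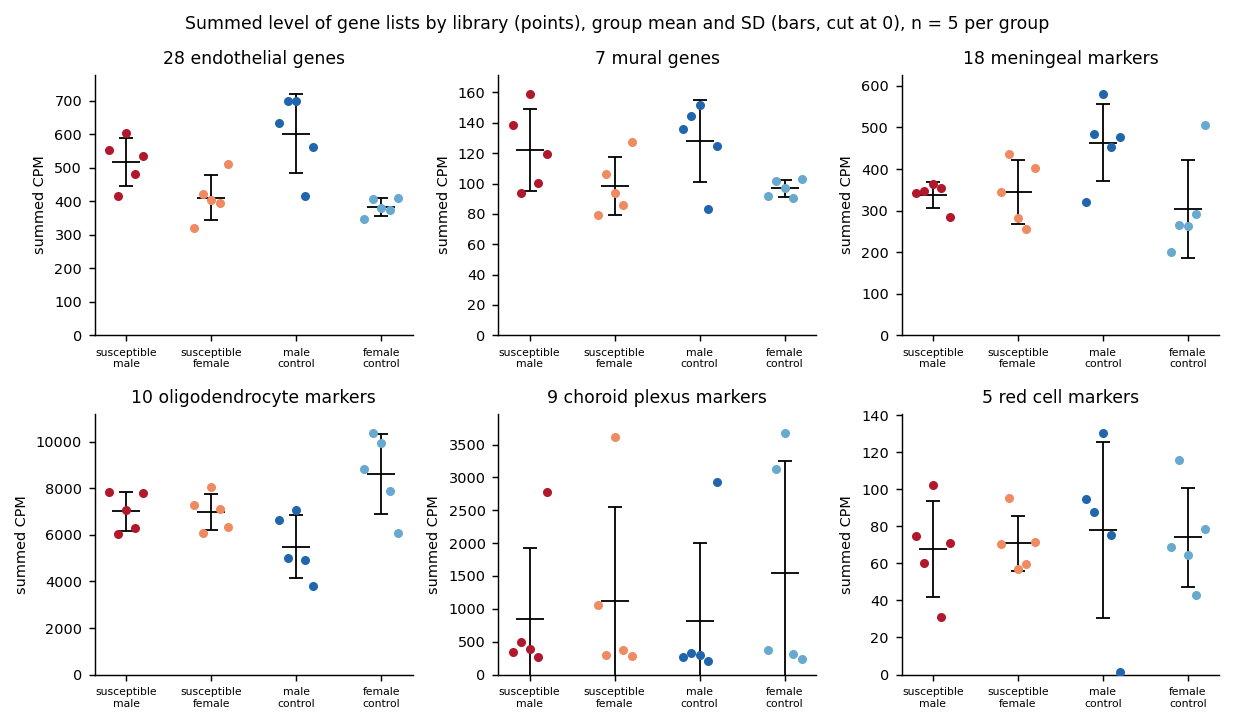
Summed CPM (y axis) of 6 gene lists in each library (points) for the 4 groups (x axis), with bars for the group mean and SD (n = 5, cut at 0). The 28 endothelial genes are at 415 to 699 CPM in male controls and 347 to 410 CPM in female controls, and choroid plexus markers reach 2773 CPM or more in 5 libraries spread over all groups.

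Genes that act with the 35 were compared as lists, and the genes named with stress are those with the smallest p of their list. Of 9 VEGF and angiopoietin ligands and co-receptors, 4 were higher and 5 lower in male controls than in female controls (median -0.11), and none passed. With stress, 5 of the 9 were lower in males (median -0.03), Vegfa having the smallest p (-0.15 ± 0.07, unadjusted p = 0.047). In females 8 of the 9 were lower (median -0.17), and the gene with the smallest p, the lymphatic growth factor Vegfc, was the single higher one (0.61 ± 0.20, unadjusted p = 0.0065). All 10 Notch and ephrin genes were higher in male controls (median 0.34), and none passed. At an unadjusted p under 0.05, 6 of them were higher (10.4% of all genes were). With stress, 9 of them were lower in males (median -0.14), led by Notch1 (-0.37 ± 0.15, unadjusted p = 0.0204), and in females 5 were higher and 5 lower (median -0.01), Jag2 having the smallest p (-0.19 ± 0.10, unadjusted p = 0.0712). Of 9 TGF-beta and BMP genes, 5 were higher in male controls (median 0.22) and 8 lower with stress in males (median -0.27), led by Id3 (-0.51 ± 0.20). In females 6 of the 9 were higher with stress (median 0.04), and Smad7 had the smallest p (-0.14 ± 0.06). Of 9 tested genes of shear stress and activation, 8 were higher in male controls (median 0.31). Icam1, an adhesion molecule of activated endothelium, passed, with 5.896 ± 2.797 CPM in male controls and 2.08 ± 0.286 CPM in female controls (SD, n = 5 each; log2 fold change 1.503 ± 0.32, adjusted p = 0.0459). With stress, 8 of the 9 were lower in males (median -0.17), led by Thbd (-0.43 ± 0.18). In females 5 were lower (median -0.10), and Cx3cl1, which neurons also make, had the smallest p (0.28 ± 0.19). The other 9 tight junction genes did not share the excess in male controls: 6 were lower (median -0.24). With stress, 5 of the 9 were higher in males (median 0.05), while Tjp1, with the smallest p, had a negative value (-0.13 ± 0.10). In females 8 of the 9 were lower (median -0.20), and Cldn12, with the smallest p, was the single higher one (0.24 ± 0.08). Of 10 basement membrane genes, 7 were higher in male controls (median 0.17). With stress, 8 were lower in males (median -0.23), with the smallest p for Lamb2 (-0.29 ± 0.13), and 9 in females (median -0.23), with the smallest p for Col4a2 (-0.30 ± 0.10). Of 16 further endothelial genes, 12 were higher in male controls (median 0.38) and 13 lower with stress in males (median -0.11), none past the threshold, with the smallest p for Clec14a (-1.003 ± 0.32). In females 10 of the 16 were higher with stress (median 0.09), with the smallest p for Cd34 (0.34 ± 0.19). Of 11 further mural genes, 9 were higher in male controls (median 0.19). With stress, 8 were lower in males (median -0.08), with the smallest p for Pdgfb, the ligand of Pdgfrb (-0.46 ± 0.17), and 7 in females (median -0.07), with the smallest p for Mcam (-0.35 ± 0.21).

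Markers of other cells were examined beside the stress comparisons too. In males, 15 of 18 meningeal and fibroblast markers were lower with stress (median -0.48), 9 at an unadjusted p under 0.05 (5.03% of all genes were lower). The 18 markers summed to 284 to 364 CPM in susceptible males and 322 to 581 CPM in male controls. Islr led them (-0.74 ± 0.20), and in females 14 of the 18 were lower (median -0.24), with the smallest p for Aldh1a2 (-0.58 ± 0.27). All 10 oligodendrocyte markers were higher in susceptible males than in male controls (median 0.33, sums 6033 to 7865 CPM in susceptible males against 3787 to 7068 CPM in male controls), led by Ermn (0.56 ± 0.18). In females all 10 were lower with stress (median -0.31), led by Mobp (-0.32 ± 0.14). Of 14 microglia and macrophage markers, 8 were lower with stress in males (median -0.02) and 8 higher in females (median 0.02), with the smallest p in both for Cd163 (-0.91 ± 0.34 in males, 0.73 ± 0.34 in females). All 5 red cell markers were lower in both sexes (median -0.24 in males, -0.09 in females), with the smallest p for Alas2 (-0.45 ± 0.46 and -0.28 ± 0.47). Of 9 choroid plexus markers, 7 were higher in males (median 0.18) and 7 lower in females (median -0.42), with the smallest p for Prlr (0.92 ± 0.58 and -0.47 ± 0.57). Of 10 astrocyte markers, 5 were higher and 5 lower in males (median -0.02), with the smallest p for S100b (0.29 ± 0.12), and 8 were lower in females (median -0.14), with the smallest p for Gfap (-0.59 ± 0.19). Of 10 neuron markers, 7 were higher in males (median 0.04), with the smallest p for Stmn2 (0.30 ± 0.12), and 6 in females (median 0.04), with the smallest p for Gad1 (0.28 ± 0.14). None passed the threshold, no marker was at 0 in all libraries of a group, and their part in the vascular values was not tested.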

How the data were processed

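Unnormalized gene counts were deposited by the authors as 1 table for each of 20 libraries, made from polyadenylated RNA of the BNST and sequenced as paired reads, per the labels' protocols. HISAT2, featureCounts and mm10 are named in the submitters' processing notes; versions, annotation and strand setting were not given in the sources used here. Reads shared by overlapping or similar genes therefore cannot be separated. Identifiers of 19206 of the 19214 genes matched GENCODE M21 on GRCm38, and the 8 others held 0.0026% of the counts. Promoter sequences are RefSeq's.

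Counts were scaled by TMM, filtered with filterByExpr (14884 genes kept) and fitted over all 20 libraries, 1 mean per group, with edgeR 4.0.16 (R 4.3.3, robust quasi-likelihood test). P-values were adjusted over the 14884 genes by the method of Benjamini and Hochberg and called below 0.05, and each SE is the size of the log2 fold change divided by the root of its F statistic. CPM uses the scaled library sizes. Alternatives used DESeq2 1.42.0, limma 3.58.1 (voom with sample quality weights), mgcv 1.9.3 for trends on GC content and length, other filters, the replicate number as a block, and libraries left out. The code was tested on simulated data.

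The 35 genes and the other lists were chosen with earlier results of these data known. Values per library are printed for listed genes with an unadjusted p under 0.05 in any comparison and for Pecam1, Cldn5, Flt1, Klf2, Rgs5, Pdgfrb, Acta2 and Tagln. Of other lists, up to 2 called genes per comparison are named, or else the gene with the smallest p in each stress comparison.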

Additional observations from a re-analysis of the deposited data

Results flagged for a closer look

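In 5 of 140 combinations of a vascular gene and a group, 1 library stood far from the other 4 by Dixon's criterion, where chance alone gives about 7 (1 in 20). Library 4 of the male controls was low for Pecam1 (16.5 CPM, the others 25.5 to 27.1) and Kdr (7.05 CPM, the others 18.4 to 20.1). Library 1 of the susceptible males was low for Icam2 (0.608 CPM, the others 1.19 to 1.42). Library 5 of the susceptible females was high for Robo4 (7.06 CPM, the others 4.84 to 5.22). Library 5 of the female controls was high for Flt1 (49.8 CPM, the others 40.6 to 42.5).

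Summed levels stood apart in 6 of 100 combinations of a list and a group, where chance alone gives about 5. The junction and surface glycoprotein genes were low in library 4 of the male controls (90.3 CPM, the others 134 to 147). Choroid plexus markers were high in library 5 of the susceptible males (2773 CPM), library 3 of the susceptible females (3617 CPM) and library 5 of the male controls (2932 CPM). Meningeal and fibroblast markers were low in library 5 of the susceptible males (284 CPM, the others 342 to 364). Genes of shear stress and activation were high in library 5 of the female controls (746 CPM, the others 499.6 to 569.8), and most of that sum was Cx3cl1, at 642 CPM in library 5 and 403 to 474 CPM in the others. Without Cx3cl1 the list summed to 104 CPM in library 5 and 95.6 to 116 CPM in the others.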

How the results depend on the processing

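Between the controls, the median of the vascular genes stayed between 0.49 and 0.63 and 32 to 34 genes stayed higher in males in all 31 alternatives, while the number called moved. Leaving out each library in turn gave 0 to 13 vascular genes and 6 to 458 of all genes. DESeq2 called 15 vascular of 455 genes, voom 19 of 3290 and, corrected for GC content and length (a choice made after seeing the data), 20 of 3190. No filter gave 4 of 38, the 2 groups alone 2 of 19, and dropping the 7 libraries rich in Ttr, or the 5 with Pmch, 0 of 5 each. Between susceptible males and females, where 7 of all genes passed, the count was 15 with DESeq2, 11 with voom, 4 with the 2 groups alone, 4 without the Ttr libraries, 13 without the Pmch libraries and 6 to 20 with each library left out. With stress, voom called 5 vascular of 671 genes and DESeq2 24 genes in males, DESeq2 29 over both sexes, and leaving out libraries 0 to 2 in females. The cause of these moves was not tested. No listed gene changed sign where it was called or where both estimates exceeded 1 SE.

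Same-numbered libraries of different groups had a median r of 0.06 over 30 pairs (from -0.60 to 0.67). Libraries with different numbers had a median r of -0.04 over 120 pairs (from -0.65 to 0.68). The ranges were alike, and whether some numbers stand for a shared batch or pairing was not tested. With the number as a block, 9 vascular genes (7 of them shared with the fit without it) and 110 of all genes passed between the controls, and 4 genes between susceptible males and females. At these depths, genes such as Tagln, Icam2 and Higd1b had too few counts for small differences to be detectable.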
